A study of Rattus norvegicus with 20 samples.

Results

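Round spermatids and pachytene spermatocytes of rats given cyclophosphamide were compared for their microRNAs (miRNAs), on 5 arrays of each cell type. A miRNA belonged to the comparison if the scanner software called it present on every array of 1 or both cell types, which held for 214 of the 677 rat miRNAs on the array. The rats were Sprague-Dawley males, gavaged with cyclophosphamide at 6 mg/kg on 6 days a week for 4 weeks. Control rats of the same strain received saline on the same schedule and gave 5 arrays of each cell type as well. Germ cells were separated by unit gravity sedimentation, which sorts cells by size, and 100 ng of total RNA was labelled per array. The purity of the fractions is not given in the sources used here. The labels number the rats as 7, 15, 16 (with an earlier and with a later year) and 29 for pachytene spermatocytes. For round spermatids the numbers are 14, 15, 16, 25 and 26. Values are listed below in that order. The age of the rats is not given in the sources used here. Whether rat 15 or 16 gave both cell types is unclear from the labels. Also unclear is whether the pachytene arrays of the earlier and later 16 come from different animals. The p-values reflect variation among animals only if those arrays do and if different numbers are different rats.

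Cyclophosphamide is an alkylating drug that damages DNA, and male germ cells are among its known targets. Pachytene spermatocytes are in the long prophase of meiosis, when homologous chromosomes are paired and the X and Y chromosomes are silenced for most protein-coding genes. Round spermatids are haploid: they arise from the second meiotic division and have not yet begun to elongate. A miRNA is a short RNA, cut from one arm (5p or 3p) of a hairpin precursor, that guides repression of messages matching its seed, bases 2 to 8 from its 5′ end. In male germ cells the miR-34b, miR-34c and miR-449 precursors and a group of fast-evolving X-linked precursors are well known. In bulk RNA, fewer cells of a type and less RNA per cell cannot be told apart.

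Mature sequences were found in the RefSeq table of the GRCr8 build for 194 of the 214 miRNAs. The sequences below are those on which the results turn, with the seed in capitals. They are miR-7a-5p, which had the largest difference of the comparison; 4 miRNAs with 1 seed that did not move together; 5 members of the miR-15 and miR-16 seed; a pair that differs by 1 base; 3 X-linked neighbours; and both arms of miR-652.
miR-7a-5p: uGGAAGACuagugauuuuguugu
miR-34a-5p: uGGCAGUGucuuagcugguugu
miR-34b-5p: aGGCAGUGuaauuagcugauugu
miR-34c-5p: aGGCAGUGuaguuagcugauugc
miR-449a-5p: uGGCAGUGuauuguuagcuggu
miR-16-5p: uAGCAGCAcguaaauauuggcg
miR-15b-5p: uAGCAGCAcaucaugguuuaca
miR-195-5p: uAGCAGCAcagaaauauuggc
miR-497-5p: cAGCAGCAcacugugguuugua
miR-322-5p: cAGCAGCAauucauguuuugga
miR-101a-3p: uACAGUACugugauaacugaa
miR-101b-3p: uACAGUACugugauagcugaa
miR-201-5p: cACUCAGUaaggcauuguuc
miR-547-3p: aUUGGUACuucuuuaagugaga
miR-3585-5p: uUCACAAGaaggugucuuucau
miR-652-5p: aCAACCCUaggagggggugccau
miR-652-3p: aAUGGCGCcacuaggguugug

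Between 215 and 249 miRNAs were detected per pachytene array and between 181 and 244 per spermatid array, means of 233 ± 13.8 and 214 ± 22.6 (SD, n = 5; p = 0.143 in an exact two-sided permutation test). The scaling value of an array, the 75th percentile of its bright spots, was 309 ± 54.1 in pachytene spermatocytes and 237 ± 65.9 in round spermatids (exact permutation p = 0.0952; 5 against 5 arrays allow 0.00794 at the least). Some arrays stood apart. The spermatid array of rat 14 was the dimmest of the 10, with a scaling value of 176, and the spermatid array of rat 26 was the only one of them on a slide whose other arrays are not of this comparison. The arrays of slide 1 (2 pachytene, 3 spermatid) and slide 2 (3 pachytene, 1 spermatid) allow the same difference within a slide. On slide 1 each cell type also sat in a row of its own. Precision is limited by having 5 arrays a group.

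Signals are log2 intensities after scaling, and a difference is the spermatid mean minus the pachytene mean, so that 1 is a doubling in round spermatids. The lowest value possible is the floor of 3.61, and values at the floor carry no order. Differences were tested with limma across the 217 miRNAs present on every array of 1 or more of the 4 groups, and a miRNA is said to be called, to rise or to fall at a Benjamini-Hochberg adjusted p under 0.05. Of the 214 miRNAs, 61 were called higher in round spermatids and 49 lower, beside 51.6% called among all 217 miRNAs tested (29% higher and 22.6% lower). The 214 are nearly the whole of the tested set, so their share is that background.

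Counts that do not follow from the detection rule come from the 165 miRNAs detected on all 10 arrays. Of these, 52 were higher in round spermatids, 34 were lower and 79 were not called. The groups did not overlap for 64 of them, 36 higher and 28 lower, beside 38.7% without overlap among all tested. At least 2-fold differences were called for 17 higher and 9 lower. The balance of directions depends on the scale. Higher calls made up 60.5% of the calls here and 33.7% with each array scaled to the 75th percentile of all its probes (29 higher, 57 lower). They made up 48.3% after quantile normalization (42 higher, 45 lower), 30.9% without scaling (17 higher, 38 lower) and 13.4% with scaling to control spots (11 higher, 71 lower). Normexp background correction gave 51.4% (19 higher, 18 lower), and 48.4% with quantile normalization after it (44 higher, 47 lower). Scaling to control spots rests on the control probes dmr_285 and dmr_31a alone. Unscaled, dmr_31a ran from 151 to 240 on the pachytene arrays and from 166 to 384 on the spermatid arrays. The control probe mr_1, not used for that scale, ran from 1173 to 1624 and from 655 to 1134. Results with control spots therefore depend on the probes chosen, and no other choice was tried. Normexp adds an offset that shrinks differences between dim signals. After it, 28 of the 53 called miRNAs that are named by the rule were no longer called. Among them were miR-223-3p, miR-199a-3p, miR-124-3p, miR-221-3p, miR-146a-5p and miR-877. Bright miRNAs such as miR-741-3p, miR-16-5p and miR-19b-3p lost their calls too, and the cause of these losses was not tested. Some of the scales moved the median difference of all tested miRNAs, 0.06, by -0.13 for all probes, -0.28 without scaling and -0.56 for control spots. Directions are therefore relative to the bulk of the miRNAs on the array, and sign changes are named below for each miRNA or family they touch.

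**Figure D1:**
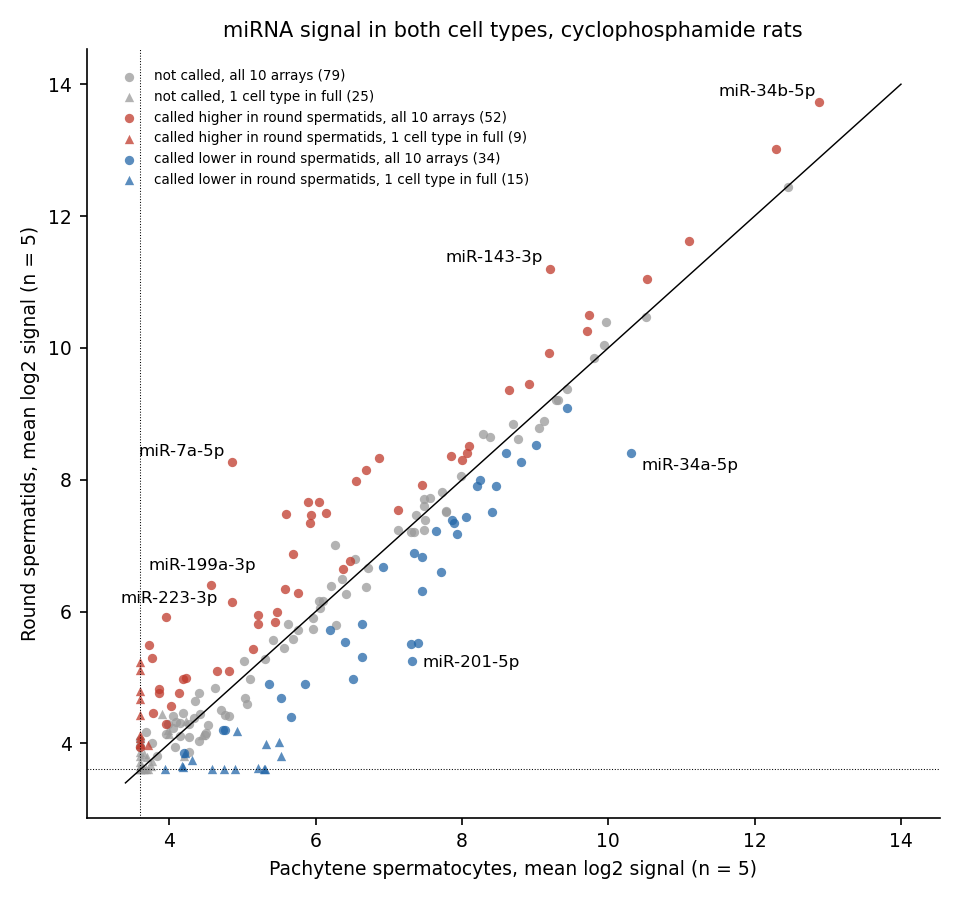
Mean log2 signal of the 214 miRNAs in pachytene spermatocytes (horizontal) and round spermatids (vertical) of cyclophosphamide rats, 5 arrays each. Circles were detected on all 10 arrays and triangles in full in 1 cell type only, colours give the call, dotted lines mark the floor of 3.61, and miR-7a-5p lies farthest above the line of equal signal.

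The 5 brightest miRNAs of pachytene spermatocytes were miR-34b-5p, miR-449a-5p, miR-34c-5p, miR-16-5p and miR-19b-3p. The same 4, miR-34b-5p, miR-34c-5p, miR-449a-5p and miR-16-5p, were brightest in round spermatids, followed by miR-143-3p. These ranks compare different probes on the array and are given as a description only. The germ cell miRNAs chosen to check the labels, miR-34b-5p, miR-34c-5p and miR-449a-5p, were among the brightest in both cell types. Being bright in both, they cannot tell by rank which array is of which cell type.

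The miR-34 and miR-449 family shares the seed GGCAGUG, is known as a target of p53 for miR-34a, and is needed for normal sperm formation in the mouse for miR-34b, miR-34c and miR-449. Its members did not move together. On the log2 scale miR-34a-5p was 10.05, 10.21, 10.35, 10.45 and 10.49 on the pachytene arrays and 8.25, 7.92, 8.62, 8.10 and 9.14 on the spermatid arrays. No spermatid array reached the lowest pachytene array, and rat 26 came nearest. The difference was -1.90 (SE 0.19; limma adjusted p = 2.41e-07), 3.74-fold lower in round spermatids. It was -1.87 within slide 1 and -2.33 within slide 2.

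The other members of that seed behaved differently. miR-34b-5p was 12.97, 13.23, 12.64, 12.90 and 12.64 on the pachytene arrays and 13.67, 14.07, 13.58, 13.46 and 13.87 on the spermatid arrays, without overlap. It rose by 0.85 (SE 0.19; limma adjusted p = 0.0011), though quantile normalization, which gives the brightest miRNA of each array the same value, holds it at 0, and its call was also lost without scaling (0.45) and with control spots (0.14). miR-34c-5p, from the same hairpin cluster on chromosome 8, was 12.49, 12.73, 12.00, 12.21 and 12.04 on the pachytene arrays and 12.98, 13.40, 12.91, 12.66 and 13.15 on the spermatid arrays. It rose by 0.73 (SE 0.20; limma adjusted p = 0.00609), with 1 spermatid array below the highest pachytene array. That call was lost with all probes in the percentile (0.52), without scaling (0.32), with control spots (0.01) and within slide 1 (0.49). miR-449a-5p was 12.64, 12.80, 12.15, 12.45 and 12.21 on the pachytene arrays and 12.35, 12.74, 12.19, 12.19 and 12.71 on the spermatid arrays, with full overlap. Its difference was -0.01, with a 95% interval of -0.42 to 0.39; quantile normalization called it lower (-0.37), as did scaling to control spots (-0.73). In the whole family list, 7 of 10 miRNAs on the array belonged to the comparison and 6 were detected on all 10 arrays: 2 rose, 1 fell and 3 were not called, with a median difference of 0.07 beside 0.06 for all tested. The 3p arm of miR-449a was detected on all 5 pachytene arrays and on no spermatid array, while its 5p arm was among the brightest miRNAs of both.

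miR-7a-5p had the largest difference of the comparison. It is cut from precursors at chr17:6278710-6278732 (plus strand, inside the span of Hnrnpk) and chr1:142215818-142215840 (plus strand, inside the span of a long noncoding RNA) in GRCr8, and in other tissues it is known from neurons and endocrine cells. Its log2 signal was 4.83, 4.85, 5.15, 4.71 and 4.77 on the pachytene arrays and 8.22, 8.84, 8.29, 7.77 and 8.22 on the spermatid arrays. Every spermatid array exceeded every pachytene array by more than the whole range of either group. The difference was 3.41 (SE 0.21; limma adjusted p = 1.50e-09), 10.6-fold higher in round spermatids, with 3.61 within slide 1 and 2.90 within slide 2. The 3p arm of the chromosome 1 precursor, miR-7a-2-3p, was detected on no pachytene array and on all 5 spermatid arrays. It was at least 1.76-fold higher there (mean 4.43 ± 0.14, SD, against 3.61 on every pachytene array). This arm entered the comparison through the spermatid arrays, so its direction is partly built in. Here and below, "at least" sets the brighter mean against, per dim array, the higher of the floor and the lowest signal well above background. Arrays of the brighter cell type were not held to that limit. On the spermatid array of rat 14 the limit was 4.56, and miR-7a-2-3p lay under it at 4.36.

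**Figure D2:**
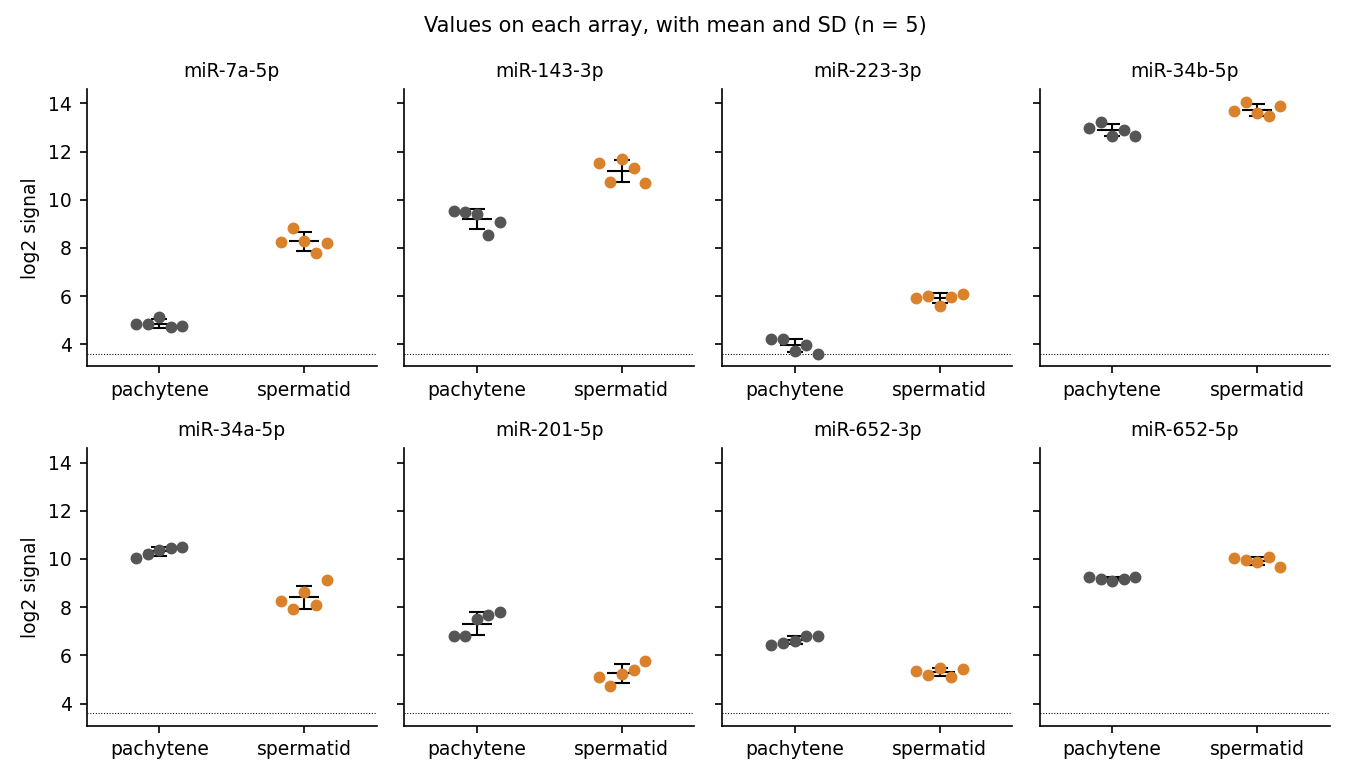
Log2 signal on each array for 8 miRNAs, with grey points for pachytene spermatocytes, orange points for round spermatids, bars for mean and SD (n = 5) and a dotted line at the floor of 3.61. The groups did not overlap for any of the 8, and the arms of miR-652 moved in opposite directions.

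Of the 10 largest rises, 5 were of miRNAs on the lists of other cell types: miR-143-3p, miR-145-5p, miR-199a-3p and miR-199a-5p from mesenchymal and smooth muscle cells, and miR-223-3p from myeloid blood cells. miR-143-3p was 9.52, 9.47, 9.41, 8.52 and 9.07 on the pachytene arrays and 11.54, 10.74, 11.69, 11.33 and 10.71 on the spermatid arrays, a 4.01-fold rise (limma adjusted p = 8.72e-07; SE 0.23 on the log2 scale). The lowest spermatid array, of rat 26, stood above the highest pachytene array. miR-145-5p, from the same cluster on chromosome 18, rose by 1.75 (SE 0.34; limma adjusted p = 2.27e-04). miR-199a-3p was 4.26, 4.54, 4.79, 4.51 and 4.76 on the pachytene arrays and 6.83, 6.48, 6.59, 6.86 and 5.27 on the spermatid arrays, where rat 26 was lower than the other 4 spermatid arrays. It rose by 1.84 (SE 0.27; adjusted p = 1.61e-05 in limma) and its 5p arm by 1.78.

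The mesenchymal, muscle and endothelial list as a whole had 17 miRNAs on the array, of which 9 belonged to the comparison and 6 were detected on all 10 arrays. Of those 6, 5 rose and 1 fell, with a median difference of 1.76, of 1.69 within slide 1 and of 2.18 within slide 2. Summed over the list, the scaled intensity was 984, 1041, 923, 571 and 756 on the pachytene arrays and 3576, 2075, 3894, 3213 and 2013 on the spermatid arrays. All spermatid arrays were higher, and those of rats 15 and 26 were the lowest among them. The skeletal muscle miRNAs miR-1-3p and miR-206-5p were detected on none of the 10 arrays, and miR-206-3p and miR-133a-3p on 1 each. The muscle miRNA miR-133b-3p was detected on 4 pachytene arrays, at the floor on all 5, and on all 5 spermatid arrays, between 4.67 and 5.68. It was called higher, with a fitted 1.51 that depends on the floor and a direction partly built in by the detection rule. The endothelial miR-126a-3p went the other way: it was 6.69, 7.49, 6.26, 6.53 and 6.21 on the pachytene arrays and 5.67, 5.45, 6.17, 5.65 and 6.12 on the spermatid arrays, a fall with a difference of -0.83 (SE 0.32; limma adjusted p = 0.0369), without overlap. That call was lost on leaving out pachytene rat 7, 15 or the later 16, or spermatid rat 14, 15 or 25 (-0.85 to -0.61). The part of other cells in these rises was not tested.

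miR-223-3p was 4.20, 4.24, 3.73, 3.99 and 3.61 on the pachytene arrays, the last at the floor, and 5.91, 6.00, 5.58, 5.96 and 6.10 on the spermatid arrays. It rose by 1.96 (SE 0.16; limma adjusted p = 1.92e-08), 3.88-fold. Of 10 blood cell miRNAs on the array, 3 were detected on all 10 arrays: 2 rose, and miR-150-3p, known from lymphocytes, had a difference of -0.40 that was not called (adjusted p = 0.197 in limma). The list's summed intensity ran from 99.7 to 144 in pachytene spermatocytes and from 174 to 235 in round spermatids. The red cell miRNAs miR-451-5p, miR-451-3p, miR-144-5p and miR-144-3p were detected on none of the 10 arrays.

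The Sertoli and gonadal list was split. miR-202-3p, known from gonadal somatic cells, was 6.42, 6.32, 6.56, 6.57 and 6.68 on the pachytene arrays and 5.31, 4.86, 5.10, 4.57 and 5.01 on the spermatid arrays. It fell without overlap, by 1.54 (SE 0.18; limma adjusted p = 9.03e-07). miR-132-3p, responsive to hormones in several tissues, was detected on no pachytene array and on all 5 spermatid arrays, at least 1.43-fold higher there. Its direction is partly built in by the detection rule. On the spermatid arrays of rats 14 and 26 it was 4.10 and 3.72, under their lowest signals well above background (4.56 and 3.77). The bound therefore rests in part on such values. miR-212-3p, from the same family, had an uncalled difference of 0.41 (limma adjusted p = 0.197), with rat 26 below every other array of both cell types, and was called higher without it. The list's summed intensity overlapped between the cell types, from 359 to 464 in pachytene spermatocytes and from 283 to 574 in round spermatids.

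Among 19 miRNAs known from spermatogonia and stem cells, 6 belonged to the comparison and 3 were detected on all 10 arrays, none of them called, with 1 called higher, miR-146b-5p, without pachytene rat 15. miR-290, known from embryonic stem cells, had a difference of -0.27 with an interval of -0.71 to 0.17. miR-21-5p had 1 of the narrowest intervals of the comparison, -0.21 to 0.03 around -0.09, and was called lower on leaving out pachytene rat 7 (-0.14). It was also called lower with all probes in the percentile (-0.30), with the mean over probes (-0.13), with control spots (-0.81) and with normexp before quantile normalization (-0.18). miR-221-3p, which keeps spermatogonia undifferentiated in the mouse, was 4.97, 4.99, 5.76, 5.80 and 6.11 on the pachytene arrays and 3.61, 3.61, 3.69, 3.90 and 4.27 on the spermatid arrays, the first 2 of these at the floor. It fell by 1.71 on the log2 scale, a fitted value that depends on the floor. Since miR-221-3p entered through the pachytene arrays, its direction is partly built in. miR-146a-5p was detected on 2 pachytene arrays and all 5 spermatid arrays, and entered the comparison through the latter. It lay at the floor on all 5 pachytene arrays. It was called higher, with a fitted 1.62 that depends on the floor and a direction that is partly built in. The miR-182, miR-183 and miR-96 precursors were detected on none of the 10 arrays.

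The seed AGCAGCA belongs to the miR-15 and miR-16 family, known for holding back cell cycle genes. It had 5 members on all 10 arrays, of which 4 rose (2 within slide 1) and miR-322-5p did not. miR-497-5p was 5.67, 5.76, 5.63, 5.25 and 5.62 on the pachytene arrays and 7.81, 7.25, 7.87, 7.63 and 6.81 on the spermatid arrays, a rise of 1.89 (SE 0.18; limma adjusted p = 1.72e-07). miR-195-5p, from the same cluster on chromosome 10, rose by 1.61 (SE 0.16; limma adjusted p = 1.72e-07). Neither pair of groups overlapped. miR-15b-5p and miR-16-5p, which have precursors elsewhere in the genome, rose by 0.76 and 0.51. The sign of miR-16-5p turned after quantile normalization (-0.08) and with scaling to control spots (-0.20). X-linked miR-322-5p had a difference of -0.35 (limma adjusted p = 0.078). It was called lower with the 10 cyclophosphamide arrays fitted alone, with all probes in the percentile and with control spots. miR-195-5p and miR-16-5p differ by 2 bases, and exchange of signal between their probes was not tested.

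All 5 members of the miR-23, miR-24 and miR-27 clusters rose, by between 1.35 for miR-27b-3p and 1.46 for miR-23a-3p. They lie in 2 clusters, on chromosomes 17 and 19, of which the first lies inside the span of Aopep. miR-23a-3p was 6.96, 7.27, 6.79, 6.54 and 6.80 on the pachytene arrays and 8.50, 8.20, 8.61, 8.53 and 7.83 on the spermatid arrays. The groups did not overlap (limma adjusted p = 3.89e-06), and the difference was 0.75 with control spots, where only 1 of the 5 miRNAs was called and the list's median was 0.72. The list's median was 1.43, beside 0.06 for all tested, 1.32 within slide 1 and 1.65 within slide 2. Its summed intensity put the rats of each cell type in the same order as the mesenchymal list did, with 1386, 1041, 1505, 1283 and 899.6 on the spermatid arrays and 488, 566, 429, 349 and 421 on the pachytene arrays. miR-23a and miR-23b differ by 1 base, as do miR-27a and miR-27b, and miR-24-3p comes from both clusters.

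The miR-29 family is known for repressing DNA methyltransferases and collagens. Its 3 detected members rose, by 0.56 for miR-29a-3p, 0.54 for miR-29b-3p and 0.29 for miR-29c-3p, but all 3 signs turned with scaling to control spots (-0.16, -0.18 and -0.42), and miR-29c-3p turned also without scaling (-0.11). In the miR-10, miR-99, miR-100 and miR-125 group, miR-10b-5p rose by 1.53 (SE 0.17; limma adjusted p = 4.04e-07), and miR-10a-5p, which differs from it by 1 base, had an uncalled difference of 0.24. miR-100-5p fell by 1.14 (SE 0.13; limma adjusted p = 7.06e-07), and of the group's 8 members on all 10 arrays 1 rose, 2 fell and 5 were not called; 1 fell without pachytene rat 29 or spermatid rat 15 or 26. miR-124-3p, best known from neurons, rose from 3.77 ± 0.15 to 5.30 ± 0.23 (SD, n = 5), close to the floor in pachytene spermatocytes. Among miRNAs detected on all 10 arrays, the other rises of at least 2-fold were those of miR-130a-3p, by 1.18, and miR-551b-5p, by 1.28.

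**Figure D3:**
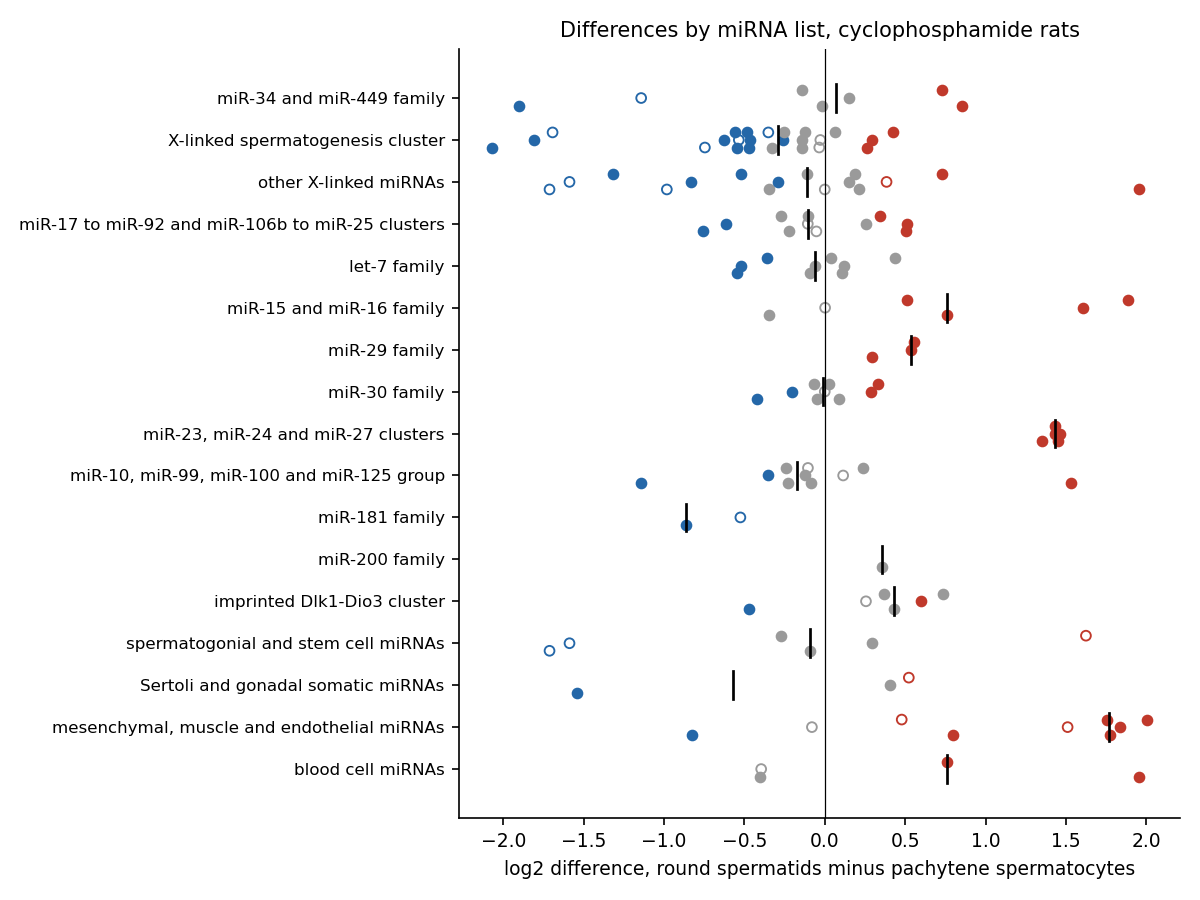
Log2 difference, round spermatids minus pachytene spermatocytes, for the members of each list. Filled points were detected on all 10 arrays and open points in full in 1 cell type only, red is called higher, blue called lower and grey not called, and the black bar is the median of the filled points. The miR-23, miR-24 and miR-27 clusters lie together near 1.43, while the miR-34 and miR-449 family spreads from -1.90 to 0.85. Under other scales signs turned for miR-742-5p, miR-883-5p, miR-3580-3p, miR-19a-3p, miR-19b-3p, miR-25-3p, miR-16-5p, the miR-29 family, miR-30e-3p, miR-30c-2-3p and miR-770-3p.

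miRNAs encoded only on the X chromosome fell more often than they rose. Of 31 such miRNAs detected on all 10 arrays, 6 rose, 14 fell and 11 were not called, with a median difference of -0.26. Of 115 encoded only on autosomes, 41 rose, 19 fell and 55 were not called, with a median of 0.22. These counts are a description, and the difference between them was not tested. Lists overlap, and miR-223-3p, named above with blood cells, is also X-linked. A further 4 have copies on both, and 15 have no location in the table used. In the list of the X-linked spermatogenesis cluster, 24 of 29 miRNAs belonged to the comparison and 18 were detected on all 10 arrays. Of those 18, 3 rose, 9 fell and 6 were not called, with a median of -0.29, -0.16 within slide 1 and -0.52 within slide 2. The signs of the 3 that rose turned with scaling to control spots, to -0.45 for miR-742-5p, -0.42 for miR-883-5p and -0.29 for miR-3580-3p. Of these rises 1 was called without spermatid rat 15, without slide 3 or with slide as a block, and none within slide 1, where 5 fell. The sign of miR-742-5p turned also after quantile normalization (-0.01) and without scaling (-0.14), and that of miR-883-5p without scaling (-0.11).

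The large falls within this list came from 1 small group of hairpins, that of miR-201 and miR-547. miR-3585, which is not on the list, lies in the same group. The group is on the minus strand at chrX:151706708-151712161 of GRCr8, 1218 kb from the next hairpins of the list. miR-201-5p was 6.78, 6.82, 7.51, 7.66 and 7.82 on the pachytene arrays and 5.10, 4.74, 5.23, 5.40 and 5.77 on the spermatid arrays. It fell by 2.07 (SE 0.24; limma adjusted p = 8.72e-07), 4.20-fold, the largest fall among miRNAs detected on all 10 arrays. miR-3585-5p and miR-547-3p fell as well, by 1.87 and 1.81, without overlap. miR-547-5p, detected in full in pachytene spermatocytes only, fell by a fitted 0.53. Its direction is partly built in by the detection rule, and its value depends on the floor. All its spermatid arrays but that of rat 26 lay there. Among the pachytene arrays miR-201-5p, miR-3585-5p and miR-547-3p were lower on those of rats 7 and 15, on slide 1, than on the 3 of slide 2. The difference of miR-201-5p was -1.78 within slide 1 and -2.26 within slide 2.

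The neighbouring hairpins changed less. Those at chrX:150462896-150488242, which include miR-463, miR-471, miR-741, miR-880 and miR-881, had 11 members with differences between -0.75 and 0.42. miR-741-3p was 8.90, 8.87, 9.02, 9.13 and 9.14 on the pachytene arrays and 8.43, 8.64, 8.51, 8.46 and 8.62 on the spermatid arrays. It fell without overlap by 0.48 (SE 0.07; limma adjusted p = 2.19e-05). The hairpins at chrX:150444578-150452038 had 6 members between -0.47 and 0.29. Of them miR-883-3p had a difference of -0.14 with an interval of -0.32 to 0.05. No test compared the groups of hairpins with one another.

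**Figure D4:**
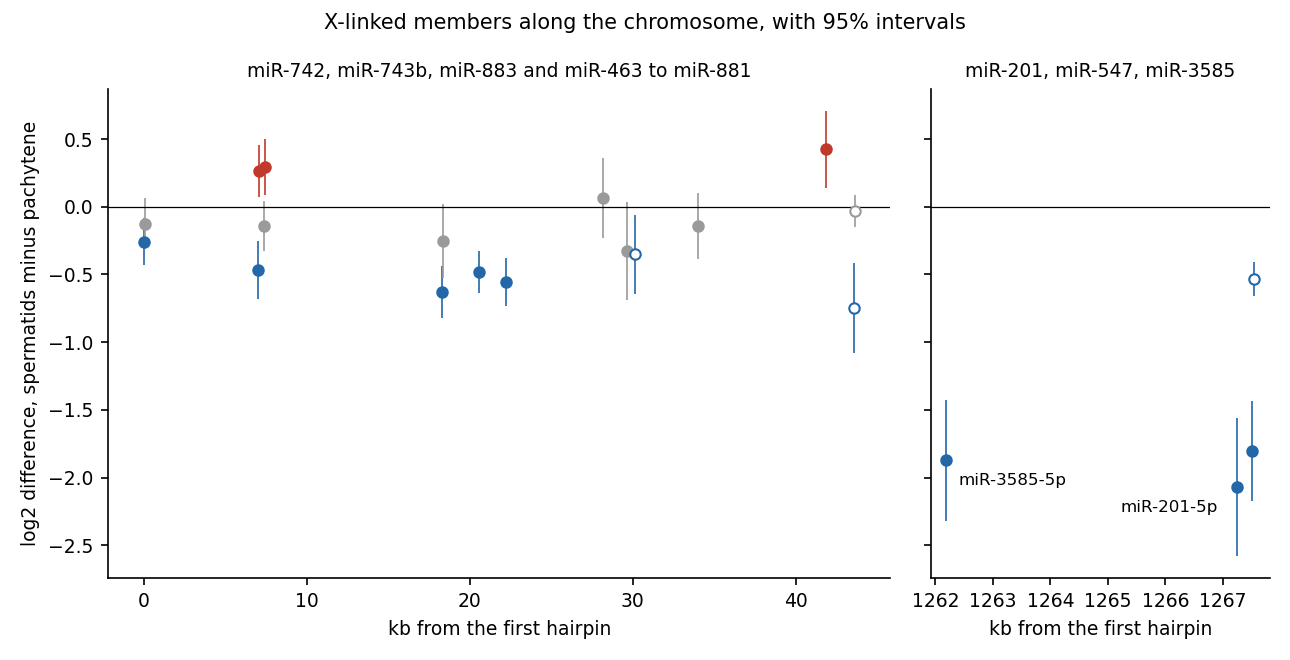
Log2 difference, round spermatids minus pachytene spermatocytes, with 95% intervals, for members of 3 groups of X-linked hairpins, against their distance in kb from the first hairpin (the right panel lies 1218 kb beyond the left). Filled points were detected on all 10 arrays and open ones in full in pachytene spermatocytes only; red is called higher, blue called lower and grey not called. miR-201-5p, miR-547-3p and miR-3585-5p lie between -2.07 and -1.81, and the 3 red points turn sign under other scales.

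Other X-linked miRNAs held changes in both directions. Of 11 detected on all 10 arrays, 2 rose and 4 fell, and 2 fell without the earlier pachytene rat 16 or without spermatid rat 14. The arms of miR-652 changed oppositely. miR-652-5p was 9.26, 9.18, 9.08, 9.18 and 9.27 on the pachytene arrays and 10.03, 9.96, 9.88, 10.07 and 9.67 on the spermatid arrays, and rose by 0.73 (SE 0.12; limma adjusted p = 2.97e-05). miR-652-3p was 6.42, 6.52, 6.60, 6.80 and 6.80 on the pachytene arrays and 5.33, 5.19, 5.48, 5.12 and 5.44 on the spermatid arrays, and fell by 1.32 (SE 0.12; limma adjusted p = 7.94e-08). Neither arm's groups overlapped, and neither sign turned under any scale tried, though the rise of miR-652-5p was not called without scaling (0.32) or with control spots (0.01).

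Of 33 precursors with both arms in the comparison, both arms were called for 9, in the same direction for 6 and in opposite directions for 3. Besides miR-652 these were miR-742 and miR-30c-2. miR-742-3p fell by 0.47 and miR-742-5p rose by 0.26, the sign of the latter turning under the scales named above. The call of miR-742-5p was lost without spermatid rat 15 or 26 or the earlier pachytene rat 16 (0.20 to 0.25), and with slide as a block (0.20), within slide 1 (0.24) and within slide 2 (0.09). That of miR-742-3p was lost within slide 1 (-0.32). miR-30c-5p fell by 0.20 and miR-30c-2-3p rose by 0.33, but miR-30c-2-3p lay at the floor on every pachytene array, its call was lost without spermatid rat 15, pachytene rat 29 or the earlier pachytene rat 16 (0.33), and its sign turned with scaling to control spots (-0.01). The call of miR-30c-5p was lost without pachytene rat 29, the later pachytene rat 16 or spermatid rat 26 (-0.18 to -0.17). The miR-30 family list as a whole had 2 that rose, 2 that fell and 4 that were not called of 8 on all 10 arrays, with a median of -0.01; within slide 1 and within slide 2, 0 rose and 1 fell. Of the 2 rises 1 was left without the earlier pachytene rat 16, pachytene rat 29 or spermatid rat 15, and of the 2 falls 1 without the later pachytene rat 16, pachytene rat 29 or spermatid rat 26.

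Of 153 seeds among the members with a sequence, 23 were shared by 2 or more miRNAs and 16 of those held at least 2 calls. In 2 seeds calls went in both directions, GGCAGUG of miR-34 and ACAGUAC of miR-101. The miR-101 pair differs by 1 base outside the seed. miR-101a-3p was 3.86, 4.03, 4.37, 4.36 and 4.52 on the pachytene arrays and 5.16, 4.76, 5.02, 5.43 and 4.61 on the spermatid arrays, and rose by 0.76 (limma adjusted p = 0.00425), a call lost without scaling (0.36) and with control spots (0.05). miR-101b-3p was 6.71, 6.79, 6.92, 7.07 and 7.10 on the pachytene arrays and 6.57, 6.78, 6.53, 6.66 and 6.82 on the spermatid arrays, with overlap, and its fall of 0.24 (limma adjusted p = 0.0431) was lost without pachytene rat 29 or either rat 16, or without spermatid rat 14, 16 or 25 (-0.24 to -0.20).

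Close relatives also differed in whether they passed the test. The let-7 family, known for promoting differentiation, had 9 list members on all 10 arrays: 8 with the seed GAGGUAG, and let-7b-3p, which has another seed and lay at the floor in pachytene spermatocytes. Of the 9, none rose, 3 fell and 6 were not called. The falls numbered 1 without pachytene rat 29 or spermatid rat 15 and 0 within slide 1, and 1 rose without spermatid rat 16. let-7b-5p was 8.69, 8.75, 8.77, 8.87 and 8.98 on the pachytene arrays and 8.35, 8.02, 8.57, 8.31 and 8.08 on the spermatid arrays, a fall of 0.55 (SE 0.11; limma adjusted p = 5.12e-04) that was not called within slide 1 (-0.41). let-7f-5p had a difference of 0.04 with an interval of -0.09 to 0.16, and let-7a-5p one of 0.11 with -0.03 to 0.25. Both were called lower after quantile normalization (-0.25 and -0.21). Sequences of this family differ by as little as 1 base, and exchange of signal between its probes was not tested.

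The miR-17 to miR-92 and miR-106b to miR-25 clusters, known for promoting proliferation, had 3 members that rose, 2 that fell and 4 that were not called of 9 on all 10 arrays, with 5 falls with slide as a block and 0 rises within slide 1. miR-17-5p was 8.17, 8.09, 7.84, 7.80 and 7.74 on the pachytene arrays and 7.05, 7.41, 7.05, 6.92 and 7.42 on the spermatid arrays. It fell by 0.76 without overlap (SE 0.11; limma adjusted p = 1.62e-05). miR-19b-3p, from the same cluster on chromosome 15, rose by 0.51 (SE 0.14; limma adjusted p = 0.00495), although its sign turned after quantile normalization (-0.08) and with scaling to control spots (-0.21). Both are also cut from a hairpin on the X chromosome, and the signals of the copies cannot be told apart.

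miR-204-5p, inside the span of Trpm3, was 7.56, 7.52, 7.77, 7.97 and 7.78 on the pachytene arrays and 6.42, 6.56, 6.78, 6.29 and 6.95 on the spermatid arrays. It fell without overlap, by 1.12 (SE 0.13; limma adjusted p = 9.03e-07). miR-107-3p lies inside the span of Pank1 and miR-103-3p, 1 base apart, inside that of Pank2, and both host genes encode enzymes of coenzyme A synthesis. miR-107-3p was 8.18, 8.30, 8.40, 8.49 and 8.69 on the pachytene arrays and 7.50, 7.43, 7.49, 7.35 and 7.77 on the spermatid arrays, a fall of 0.90 without overlap (SE 0.11; limma adjusted p = 8.72e-07). miR-103-3p fell by 0.48. miR-129-1-3p fell by 1.27, and miR-129-2-3p, which matches it over their shared bases and cannot be told apart from it here, by 1.47.

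miR-181a-5p, known from lymphocyte development, fell by 0.86 (limma adjusted p = 2.57e-05), a call lost within slide 1 (-0.79). In the imprinted Dlk1-Dio3 cluster, 6 of 75 miRNAs belonged to the comparison. Of its 5 on all 10 arrays, miR-134-5p fell by 0.47 (not called within slide 1), miR-770-3p rose by 0.60, with its sign turned by control spots (-0.12), and 3 were not called. That rise was not called on leaving out any 1 of pachytene rats 7, 15, the earlier 16 and 29 or spermatid rats 14, 15, 16 and 25, when the list had 0 rises, and without rat 26 it had 3. miR-487b-3p was 6.39, 6.24, 6.06, 6.30 and 6.33 on the pachytene arrays and 7.16, 7.24, 7.06, 7.52 and 6.02 on the spermatid arrays, where rat 26 alone lay below all pachytene arrays. Its difference was 0.74 (limma adjusted p = 0.0532), and 0.98 and called without rat 26. Of the 9 miRNAs of the miR-200 family, known from epithelia, only miR-141-3p was detected on any of the 10 arrays. Its difference was 0.36 (limma adjusted p = 0.11), and 0.45 and called without pachytene rat 15 or spermatid rat 16. Its sign turned with control spots (-0.33), without scaling (-0.05) and with the scanner software's total gene signal (-0.08).

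For the 79 uncalled miRNAs detected on all 10 arrays, 46 had a 95% interval that excluded a change of 1.5-fold or more, and 75 one that excluded 2-fold. The narrowest, besides miR-21-5p, let-7f-5p and let-7a-5p, were those of miR-30e-5p (-0.05 to 0.22) and miR-872-5p (-0.17 to 0.12). The median SD over the 5 arrays was 0.18 in pachytene spermatocytes and 0.23 in round spermatids.

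A further 49 miRNAs were detected in full in 1 cell type only, 40 in pachytene spermatocytes and 9 in round spermatids. They entered through the cell type where they were detected, so a direction is partly built in and their counts support nothing. Of the 40, 15 were called lower in round spermatids and 2 higher, and of the 9, 7 were called higher. In 3 of them all 10 arrays lay at the floor. Examples are miR-138-5p, with a difference of -1.71, miR-218a-5p, with 1.06, and miR-152-3p, with 1.18, fitted values that depend on the floor. Where a miRNA was detected on no array of the other cell type a bound applies. miR-877, inside the span of Abcf1, was at least 1.92-fold lower in round spermatids, with 5.01, 4.64, 4.61, 5.06 and 5.16 on the pachytene arrays. miR-449a-3p and X-linked miR-351-3p were at least 1.73-fold and 1.55-fold lower. miR-143-5p, detected on no pachytene array, was 4.23, 3.61, 4.56, 4.42 and 3.61 on the spermatid arrays, with rats 15 and 26 at the floor, so no bound is given. Its call was lost without spermatid rat 16 or 25 (0.36 and 0.39 on the log2 scale).

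The same contrast in saline rats rests on other arrays. The saline spermatid arrays of rats 17, 25 and 28 were on slide 3, which holds no pachytene array. In saline rats slide and cell type can therefore be told apart only in part. Of the 165 miRNAs detected on all 10 cyclophosphamide arrays, 79 were called in saline rats, 45 higher and 34 lower, beside 47.5% of all tested. Calls in both treatments numbered 70, which is 81.4% of the 86 in cyclophosphamide rats and 88.6% of the 79 in saline rats. All 86 had the same sign in saline rats. The saline difference was 2.97 for miR-7a-5p, -1.96 for miR-34a-5p 1.81 for miR-143-3p, 2.15 for miR-223-3p and -1.89 for miR-201-5p. Across the 165 miRNAs the differences of the treatments correlated with Pearson's r = 0.979, a description over miRNAs that share probes, scaling and slides. The difference between the contrasts was called for 0 of 217 miRNAs (0% of those tested) in limma, with 1 at an unadjusted p under 0.05. No other tool was run on it. The 95% interval of that difference excluded 2-fold for 149 of the 165.

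**Figure D5:**
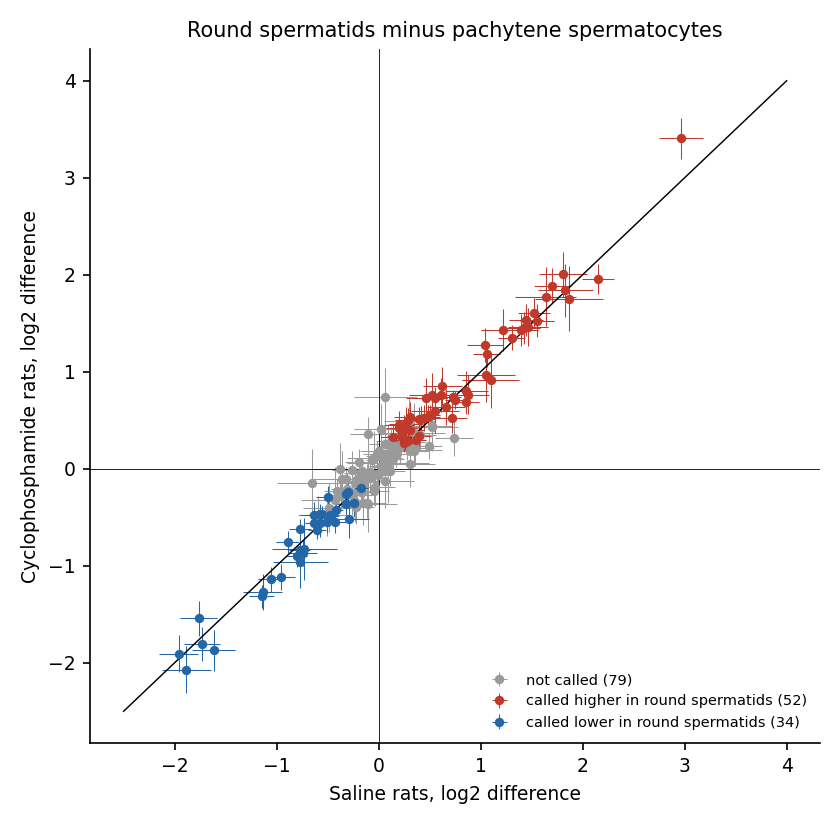
Log2 difference between the cell types in saline rats (horizontal) and cyclophosphamide rats (vertical) for the 165 miRNAs detected on all 10 cyclophosphamide arrays, with standard errors and the line of equal difference. Colours give the call in cyclophosphamide rats, and all 86 called miRNAs have the same sign in both treatments.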

How the data were processed

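Each of the 20 arrays has 1 scanner file with the intensity of every spot, linear and with background removed by Agilent Feature Extraction 11.5.1.1 per the file headers and the submitters' processing notes, and not scaled between arrays. The spermatid file of rat 14 holds values rounded to 3 significant digits. The authors also deposited 1 table of log2 values for all samples, centred on a median of 0 per miRNA, with scaling not given in the sources used here. Of 49 miRNAs matched by name, it served as an alternative for 45, those whose values in it correlated with the scanner values above 0.5. That choice favours agreement with the results here, and the value table is 1 of the 31 settings counted below.

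Here each array was divided by its 75th percentile over the 2176 spots well above background on all 20 arrays and brought back to a common level. Control spots and between 379 and 635 outlier spots per array were left out, and no spot was saturated. Spots of a probe were averaged, and the brightest probe stood for a miRNA. Values under 12.2 (3.61 on the log2 scale) were set to that floor. The 4 groups were fitted together in limma 3.58.1 (R 4.3.3), which left 16 residual degrees of freedom. The procedure was tested on simulated data.

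The members, lists and naming rule were chosen with earlier results of these data known. Named were the 10 largest rises and falls without overlap, the 5 largest bounds each way, the 5 brightest miRNAs of each cell type, the 5 narrowest uncalled intervals within 1.5-fold, arms and seeds called both ways, and the extremes of each of 17 lists. Relatives sharing a seed, hairpin group or list with these were added after their values were seen. Coordinates and sequences are from RefSeq (GRCr8), and the array design names the rn4 build, from which no coordinate is taken. Hairpins within 10 kb on a strand were grouped. Alternatives comprised scaling, background correction, filters, floor, probe summary, slide, row, pairing and left-out arrays. Normexp used median spot signals, since mean signals were not in the files. Figures were drawn with Python 3.11.15.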

Additional observations from a re-analysis of the deposited data

Results flagged for a closer look

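Of 121 sets of 5 arrays checked for the named miRNAs, 4 held an array whose gap to its nearest neighbour was over 0.71 of the set's range, a distance chance gives in about 1 of 20 sets. The spermatid array of rat 26 had 3 of them: miR-199a-3p at 5.27 against 6.48 to 6.86 on the others, let-7b-3p at 4.95 against 3.67 to 3.97, and miR-322-5p at 4.34 against 4.72 to 4.80. The pachytene array of the later rat 16 had miR-497-5p at 5.25 against 5.62 to 5.76. Without rat 26 the difference was 2.12 for miR-199a-3p, 0.21 for let-7b-3p and -0.26 for miR-322-5p. Without the later rat 16 it was 1.80 for miR-497-5p.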

How the results depend on the processing

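Over 31 settings, 17 of the 53 named miRNAs that were called kept sign and call wherever they were fitted, 29 lost the call at least once without turning, and 7 turned at least once. Of the 86 calls among miRNAs detected on all 10 arrays, 47 were kept in the same direction without scaling and 50 within slide 1. Kept were 37 after normexp correction, 63 with all probes in the percentile and 45 with control spots. Signs of the 86 turned for 24 with control spots and for 8 without scaling. With new calls included, the totals were 55 without scaling, 55 within slide 1 and 37 after normexp, and the counts that follow are also totals. Among all 214 miRNAs, the 61 higher became 37 with all probes in the percentile and 22 without scaling. They became 39 within slide 1, 16 with control spots and 19 after normexp. The 49 lower became 32 among miRNAs detected on all 20 arrays, 75 with all probes in the percentile, 87 with control spots and 18 after normexp. Fewer arrays enter within slide 1 and fewer miRNAs under the filter; the other causes were not tested. Leaving out 1 array gave 76 to 88 calls among miRNAs detected on all 10 arrays. Among all 214 it gave 53 to 66 higher and 43 to 50 lower. After quantile normalization signs of named miRNAs, called there or in the report, turned for let-7a-5p (-0.21), let-7f-5p (-0.25), miR-16-5p (-0.078), miR-19b-3p (-0.083) and miR-742-5p (-0.010), and with normexp before it for let-7a-5p (-0.23) and let-7f-5p (-0.30). With control spots they turned for let-7f-5p (-0.68), miR-16-5p (-0.20), miR-19b-3p (-0.21), miR-29a-3p (-0.16), miR-29c-3p (-0.42), miR-30c-2-3p (-0.0086), miR-3580-3p (-0.29) and miR-742-5p (-0.45), and without scaling for miR-29c-3p (-0.11) and miR-742-5p (-0.14). Control spots, both normexp settings, the array set without slide 3 and every setting of the treatment difference were chosen after seeing the data. Under the 6 settings tried, that difference stayed at 0 calls. Rat number as a replicate block (consensus correlation 0.175) gave 89 calls among miRNAs detected on all 10 arrays. Among all 214 it gave 62 higher and 50 lower. Over 6 pairs of same-numbered arrays the deviations correlated at -0.29 to 0.21, so the numbers were not taken to pair the arrays. Counts from the value table, with 45 miRNAs, were not compared.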
